A study of Rattus norvegicus with 18 samples.

Results

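Knee synovial tissue of arthritic rats given the herbal formula WTD was compared with that of arthritic rats of the same model without it, and 2 of 23607 genes passed the test. The comparison rests on the 3 arrays whose annotation places them in the AIA-cold-WTD treatment group and the 3 placed in the AIA-cold group, which are 6 of the 18 arrays of the series; every gene measured on them is covered. All animals were male Lewis rats of 6 to 8 weeks, an inbred strain. AIA-cold-WTD rats carried adjuvant-induced arthritis in a cold model and received WTD. AIA-cold rats carried the same arthritis and the same cold model with no compound named. The groups set beside them for context were AIA-hot-WTD and AIA-hot (a hot model with and without WTD), AIA (the arthritis alone) and normal controls, each with 3 arrays. How cold was applied, the dose and timing of WTD, and the number of animals behind an array, were not given in the labels; the protocol lists 10 groups of 6 rats. The stated aim of the series was to find bioactive constituents of this formula for the cold form of the disease.

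In adjuvant-induced arthritis an immune response against mycobacterial antigens drives inflammation of the synovium, the thin lining of the joint. Its resident macrophages and fibroblasts, together with incoming neutrophils, release cytokines, lipid mediators such as prostaglandins and leukotrienes, and proteases that erode cartilage and bone. WTD, Wu-tou decoction, is a Chinese herbal formula built around aconite root that is used for joint pain associated with cold.

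The arrays of both groups do not share their slides evenly. The 3 AIA-cold arrays and AIA-cold-WTD replicate 1 were on slide 4, and AIA-cold-WTD replicates 2 and 3 were the sole occupants of slide 5 among the arrays used here. A comparison within a slide is therefore possible for 1 treated array only, and for the other 2 the treatment and the slide cannot be told apart. A value given below as on slide 5 sets AIA-cold-WTD replicates 2 and 3 against the 3 AIA-cold arrays of slide 4. It thus crosses slides and shares its reference with the value within slide 4. The titles of the treated arrays also carry a letter, G for replicate 1 and Z for replicates 2 and 3, which no label explains. Those of the AIA-hot-WTD arrays carry D, G and Z. Whether arrays with different letters had the same treatment cannot be read from the labels. Replicate 1 also stood apart in its levels of adipocyte and collagen genes. The mean of 19 adipocyte genes was 1.06 on it, against 4.01 and 3.88 on replicates 2 and 3, and 3.75, 3.97 and 2.70 on the AIA-cold arrays. These levels are log2 signals relative to the 75th percentile of each array, the scale used throughout. The mean of 20 collagen genes was 5.56 on replicate 1, against 4.17 and 4.04 on replicates 2 and 3, and 4.74, 4.49 and 4.97 on the AIA-cold arrays. AIA-hot replicate 2 leaned the same way, with means of 2.10 over the adipocyte genes and 5.35 over the collagen genes. In the same order, the means were 3.06 and 5.37 on AIA-hot replicate 1, and 2.12 and 4.78 on control replicate 1. Prg4, the lubricin gene of the synovial lining, lay between 6.48 and 7.37 on all 6 arrays. All 19 measured genes of the list of synovial fibroblasts and lining were well above background on each of them. The share of probes well above background was 71.5%, 74.0% and 76.6% on the AIA-cold-WTD arrays, against 64.2%, 64.2% and 68.3% on the AIA-cold arrays, which bears on dim genes. In bulk tissue, fewer cells of a type and less RNA per cell cannot be told apart.

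Between AIA-cold-WTD and AIA-cold, limma called 0 genes higher (0% of those tested) and 2 lower (0.00847%) at an adjusted p under 0.05. At an unadjusted p under 0.05 there were 624 higher and 811 lower genes, 6.08% of those tested. The 3 arrays of AIA-cold-WTD all lay above the 3 of AIA-cold for 1813 genes (7.68%) and all below for 1582 genes (6.70%). The median difference over all genes was 0.01 (log2), and the middle 50% of them lay between -0.16 and 0.17. The 2 calls were Alox15b and the expressed-sequence tag BF549735, and 4 named genes followed at an adjusted p of 0.0541, just outside the threshold.

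**Figure D1:**
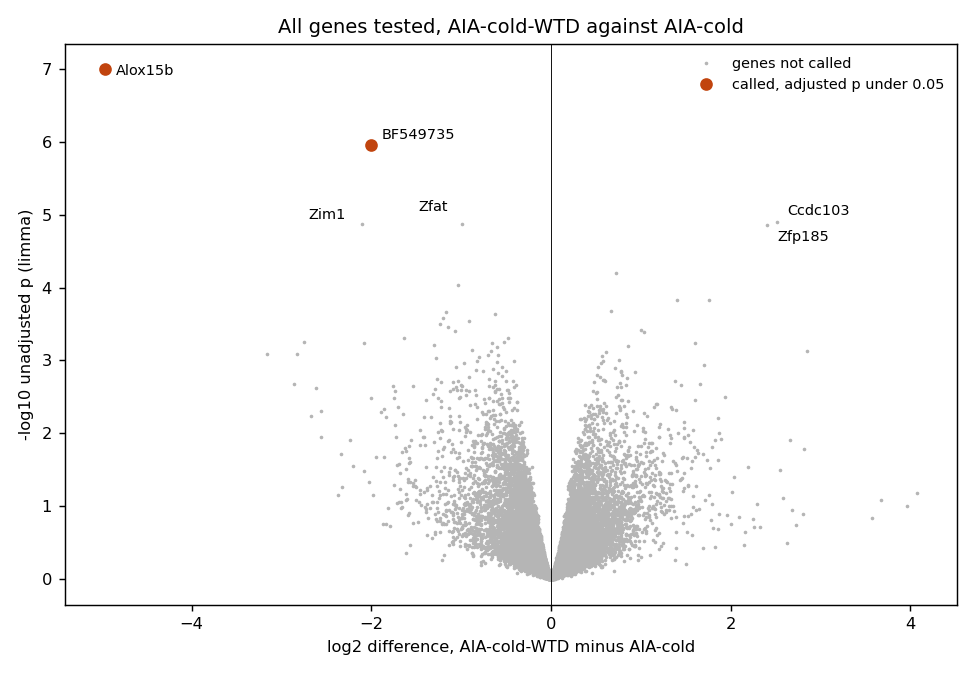
Each point is 1 of 23607 genes, placed by its log2 difference (AIA-cold-WTD minus AIA-cold, horizontal axis) and by -log10 of its unadjusted limma p (vertical axis). Red points are the 2 called genes, Alox15b at -4.96 and BF549735 at -2.01; Zim1, Zfat, Ccdc103 and Zfp185 are the 4 next by p.

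The 60-base probes that carried these 6 measurements are shown as the array's design gives them, in lower case throughout because no stretch of them was singled out, to show what was hybridised, with their positions in the rat build rn4.
Alox15b, chr10:55952102-55952161, minus strand: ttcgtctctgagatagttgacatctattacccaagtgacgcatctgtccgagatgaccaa
BF549735, chr9:65828759-65828817, plus strand: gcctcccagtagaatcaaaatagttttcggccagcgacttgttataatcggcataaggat
Zim1, chr1:65555877-65555936, plus strand: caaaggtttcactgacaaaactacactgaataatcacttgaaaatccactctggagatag
Zfat, chr7:105570216-105570275, minus strand: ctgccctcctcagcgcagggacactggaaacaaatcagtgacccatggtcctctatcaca
Ccdc103, chr10:92056624-92056683, plus strand: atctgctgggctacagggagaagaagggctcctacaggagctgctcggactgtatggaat
Zfp185, chrX:159011707-159012248, plus strand: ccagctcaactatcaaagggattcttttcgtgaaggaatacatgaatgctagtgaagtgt
The Zfp185 probe spans 542 bases of the genome and so crosses a gap in the alignment, and the BF549735 probe aligns to 59 bases. Zfat was read by 3 kept probes and each of the others by 1. No rn4 gene annotation was used here, so exons are not assigned beyond the transcript each probe was designed on.

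Alox15b encodes a lipoxygenase, an enzyme that oxygenates arachidonic acid and related fatty acids, and is known in human skin and macrophages. Its log2 level was -6.83, -7.16 and -7.46 on the AIA-cold-WTD arrays, against -3.11, -1.72 and -1.75 on the AIA-cold arrays. The groups lay more than 3 log2 units apart at their closest, and the spot was well above background on 0 of the 3 AIA-cold-WTD arrays and on all 3 AIA-cold arrays. Set against a floor on the dim arrays, Alox15b was at least 7.30-fold lower in AIA-cold-WTD. That floor is the lowest signal of any probe called well above background on each dim array, and every fold given as "at least" uses it. The bound depends on this choice. It holds for the processed signal only, not under normexp background correction, which used an offset of 50. The measured difference was -4.96 ± 0.51 (log2, SE; adjusted p = 0.00241). Alox15b passed in 17 of 19 planned settings, with a smaller difference of -0.95 under normexp background correction, and it was lost where slide was a fixed block (-4.64, adjusted p = 0.0528; 1 treated array is left on slide 4 and other groups supply the spread) and where only the 6 arrays were fitted (adjusted p = 0.395).

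Alox15b was well above background on 0 of the other 12 arrays of the series, and AIA-cold was the group with a measurable level. Against the controls, the AIA-cold level was at least 1.95-fold higher (adjusted p = 0.0235 in a contrast where 126 genes, 0.534%, were called). That comparison shares the AIA-cold arrays with the one above, so the 2 are given side by side and not as separate evidence. In the hot model, Alox15b differed by 0.37 ± 0.51 between AIA-hot-WTD and AIA-hot, both below background. The difference between the effects in the cold and hot models was -5.33 ± 0.72 with an adjusted p of 0.0662, the smallest of that contrast, in which 0 genes (0%) were called and 988 had an unadjusted p under 0.05.

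BF549735 is an expressed-sequence tag that the annotation used here gives no gene symbol; it falls outside the rule for named genes and is given because it was 1 of 2 calls. Its level was -4.00, -4.56 and -4.89 in AIA-cold-WTD, against -2.36, -2.43 and -2.64 in AIA-cold, with every treated array below every untreated one. The difference was -2.01 ± 0.25 (adjusted p = 0.013). AIA-cold-WTD had the lowest mean, below those of the other 5 groups, whose means lay between -3.06 and -2.48. The BF549735 call was lost in 7 of 19 planned settings. Among them were normexp background correction, where the difference was -0.50, slide as a fixed block, where it was -1.52 (adjusted p = 0.0692), and the fits of BF549735 without AIA-cold replicate 1 (adjusted p = 0.0914), AIA-cold replicate 2 (0.122) and AIA-cold-WTD replicate 2 (0.0778) or 3.

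**Figure D2:**
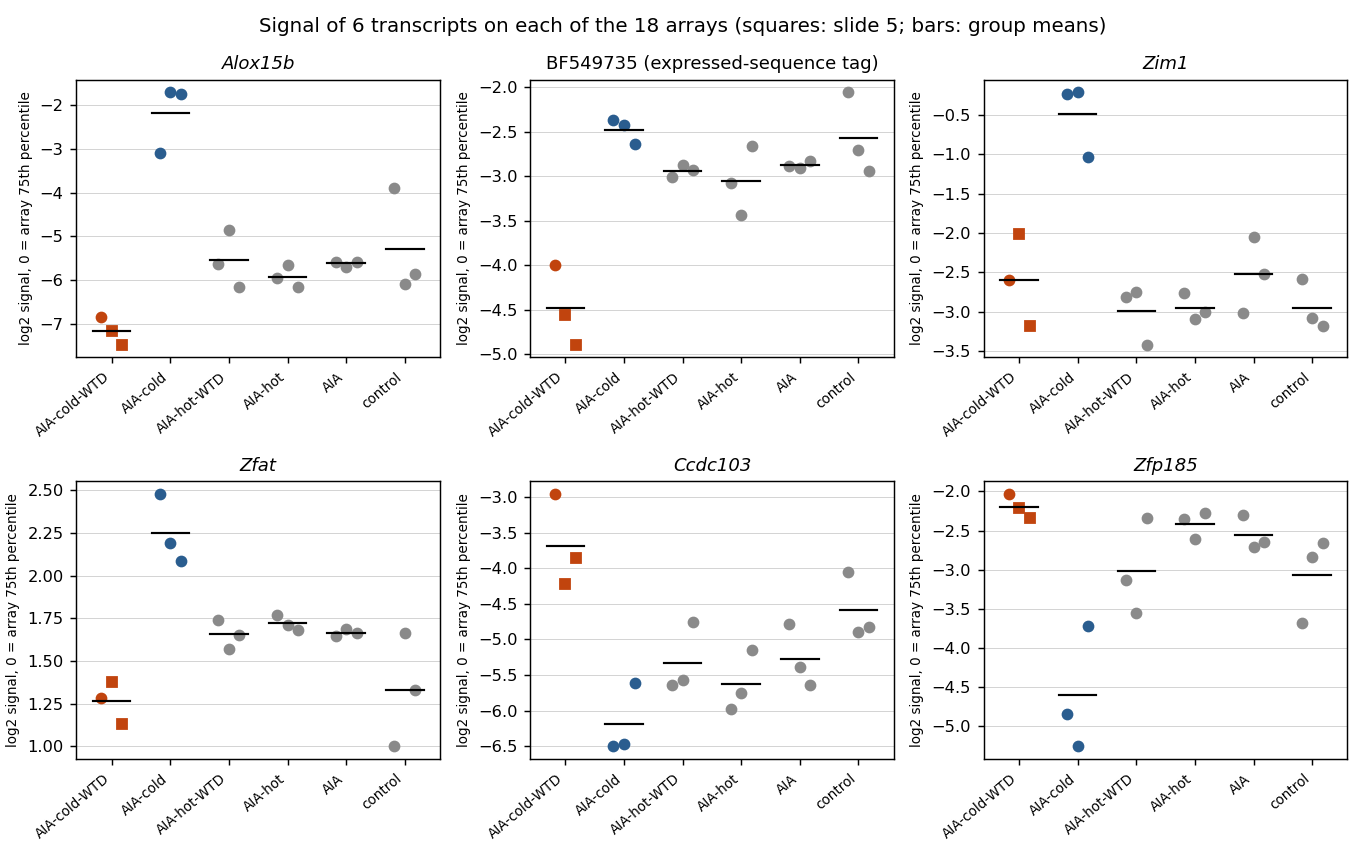
Log2 signal of 6 transcripts relative to the array's 75th percentile (vertical axes, each with its own range) on the 18 arrays by group (horizontal axes), with AIA-cold-WTD and AIA-cold first; squares are the 2 arrays of slide 5 and bars are group means. Alox15b and Zim1 are high in AIA-cold only, Zfp185 and Ccdc103 have their lowest mean in AIA-cold, and BF549735 has its lowest in AIA-cold-WTD.

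The 4 genes at an adjusted p of 0.0541 were not called. Zim1, a zinc-finger gene imprinted in mouse, stood at -2.59, -2.01 and -3.17 in AIA-cold-WTD, against -0.23, -0.21 and -1.04 in AIA-cold, a difference of -2.10 ± 0.32. Its difference was also -2.10 within slide 4 and -2.10 for the 2 arrays of slide 5, both against the same AIA-cold arrays. The mean of AIA-cold-WTD, -2.59, lay among those of AIA-hot-WTD, AIA-hot, AIA and controls (-2.99 to -2.52), and AIA-cold exceeded the controls by 2.46 ± 0.32 (adjusted p = 0.0136). Zfat, a DNA-binding protein with zinc fingers, was at 1.28, 1.38 and 1.13 in AIA-cold-WTD, against 2.48, 2.19 and 2.08 in AIA-cold, a difference of -0.99 ± 0.15 on its brightest probe and as far as 0.12 on its other probes. The Zfat result therefore belongs to the probe printed above, not to the gene as a whole.

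Ccdc103, a factor for assembling the dynein arms of motile cilia in human and zebrafish, read -2.96, -4.23 and -3.86 in AIA-cold-WTD, against -6.50, -6.47 and -5.61 in AIA-cold. It was well above background on all 3 AIA-cold-WTD arrays and on 0 AIA-cold arrays, which makes it at least 1.66-fold higher, and its measured difference was 2.51 ± 0.39. Zfp185, whose product binds the actin cytoskeleton, read -2.03, -2.22 and -2.34 in AIA-cold-WTD, against -4.84, -5.26 and -3.71 in AIA-cold, a measured difference of 2.41 ± 0.37. Only 1 AIA-cold array was well above background for Zfp185, so the size of that difference is uncertain. AIA-cold had the lowest mean of the 6 groups for both genes. Control replicate 1 is in neither group. It enters these tests through the estimate of spread and, with all other arrays, through the choice of probes. Its 75th percentile signal was 68.9, against 283 and 269 for controls 2 and 3, and its mean over 14 cartilage genes was 4.99, against -1.59 and -0.04. Leaving this array out of the limma fit, with the probes unchanged, brought all 4 genes under the threshold. The adjusted p was 0.049 for Zim1, 0.0126 for Zfat, 0.0461 for Ccdc103 and 0.0401 for Zfp185. Other planned settings left these 4 genes uncalled. Only the 2 main calls passed with no filter on dim probes and with the mean of a gene's kept probes. The same held with slide as a random block and with probes filtered within the 2 groups compared. With only the 6 arrays fitted, 0 genes passed.

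The other 10 higher genes named by the rule for naming genes also had no overlap between the arrays, and none was called. Among enzymes, the sugar reductase gene Dcxr had levels of 1.44, 1.74 and 1.72 in AIA-cold-WTD, against 0.81, 1.02 and 0.91 in AIA-cold, a difference of 0.72 ± 0.13 (adjusted p = 0.213). The choline kinase gene Chka differed by 0.57 ± 0.14, the myotonic dystrophy kinase gene Dmpk by 0.67 ± 0.14 and the hydrolase gene Mblac2 by 0.56 ± 0.14. Ptk7, a receptor of planar cell polarity and Wnt signalling, stood at -1.39, -1.71 and -1.34 in AIA-cold-WTD, against -2.65, -2.80 and -2.09 in AIA-cold (1.04 ± 0.23, adjusted p = 0.484). Megf11, a transmembrane protein with epidermal growth factor repeats, was at -5.19, -2.30 and -2.56 in AIA-cold-WTD and at -5.91, -6.15 and -6.55 in AIA-cold. Megf11 was well above background on 2 AIA-cold-WTD arrays, those of slide 5, and on 0 AIA-cold arrays, which makes it at least 2.09-fold higher (adjusted p = 0.521). The secreted C1q family member C1qtnf7, the spindle pole gene Wdr62, Dip2c and Mfsd4b2l1 differed by between 0.58 and 1.01, with adjusted p from 0.483 to 0.528; Dip2c and Mfsd4b2l1 were well above background on 1 AIA-cold array each.

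A further 9 named genes were lower in AIA-cold-WTD with no overlap, again without a call. Notch3, a Notch receptor of vascular smooth muscle and pericytes that also acts in human perivascular synovial fibroblasts, was at 5.08, 4.67 and 4.50 in AIA-cold-WTD, against 6.12, 6.44 and 5.61 in AIA-cold (-1.30 ± 0.30, adjusted p = 0.508). Ltbp1, which holds latent transforming growth factor beta in the matrix, was at 4.13, 4.29 and 4.09 in AIA-cold-WTD, against 4.83, 4.85 and 4.70 in AIA-cold (-0.63 ± 0.13, adjusted p = 0.418). Its difference was -0.66 for the treated array on slide 4 and -0.61 for those on slide 5, both against the same AIA-cold arrays. Tmsb10, a binder of actin monomers and among the most abundant of these transcripts, was at 6.98, 6.15 and 5.82 in AIA-cold-WTD, against 7.60, 7.72 and 7.34 in AIA-cold (-1.24 ± 0.26, adjusted p = 0.46). Without AIA-cold-WTD replicate 1 its adjusted p was 0.0135, and its difference within slide 4 was -0.57.

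The remaining lower genes were dimmer. Gsdma, a pore-forming gasdermin of skin, differed by -1.64 ± 0.37, and the threonine dehydrogenase gene Tdh by -1.21 ± 0.25. Dusp4, a phosphatase that switches off MAP kinases, differed by -2.08 ± 0.47 and was well above background on 1 AIA-cold-WTD array and on 3 AIA-cold arrays. Elmod1, a GTPase-activating protein for Arl proteins, was well above background on 0 AIA-cold-WTD arrays and on 3 AIA-cold arrays, and was at least 4.15-fold lower (adjusted p = 0.507). Trh, the precursor of thyrotropin-releasing hormone, read -6.43, -3.17 and -3.91 in AIA-cold-WTD, against -0.79, -2.10 and -2.15 in AIA-cold. The measured difference was -2.82 ± 0.67 (adjusted p = 0.521), and Trh was well above background on 2 AIA-cold-WTD arrays, not on replicate 1, and on 3 AIA-cold arrays. The acetyltransferase gene Naa11 differed by -0.66 ± 0.15.

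**Figure D3:**
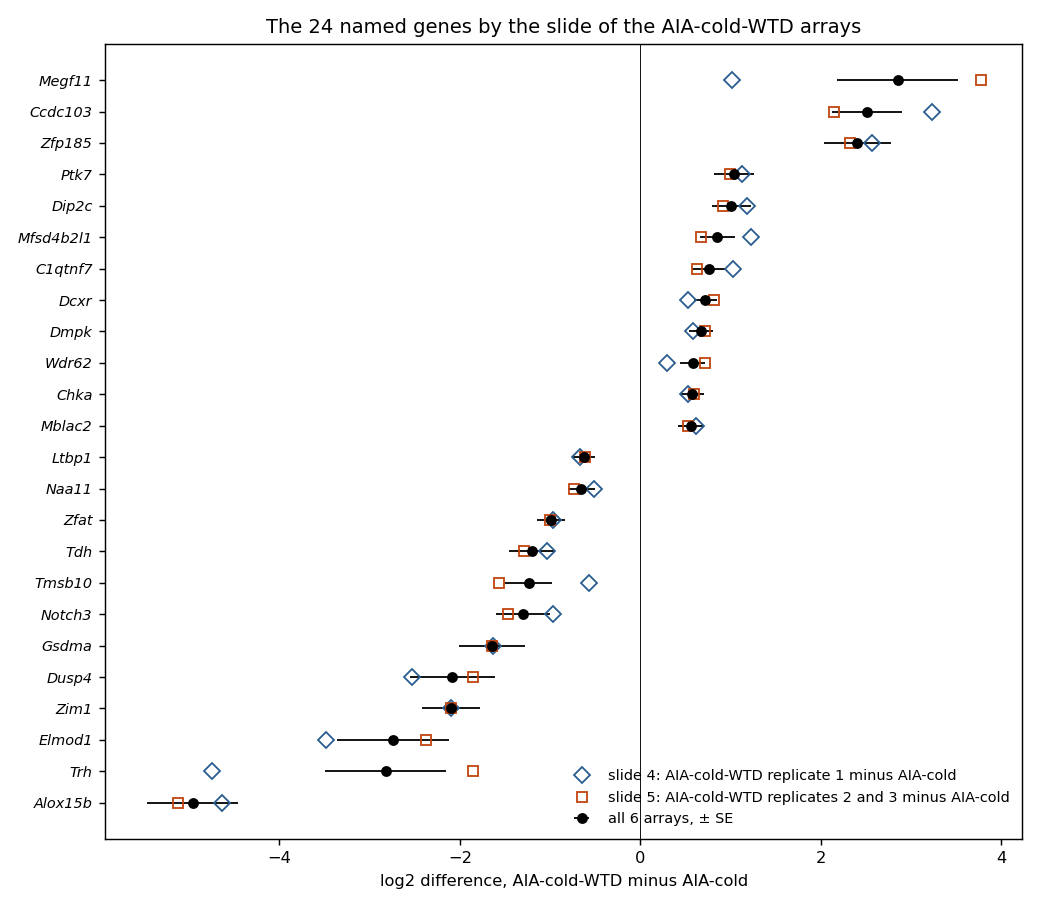
Log2 difference (AIA-cold-WTD minus AIA-cold, horizontal axis) of the 24 named genes (rows) from all 6 arrays with its SE (black), from the treated array on slide 4 (blue diamonds) and from the 2 treated arrays on slide 5 (red squares), each against the 3 AIA-cold arrays. The sign is the same in all 3 for every gene shown because the genes were chosen for having no overlap between the arrays. It is therefore no check across slides. Megf11 and Trh, which lie furthest apart between slides, include arrays not well above background.

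Genes of prostaglandin and leukotriene synthesis, the list in which Alox15b was placed, were lower in 13 of 17 measured members, with a list median of -0.19 against 0.01 over all genes. That median was -0.45 within slide 4 and -0.07 without AIA-cold-WTD replicate 1. Alox15b was the only call of the list. Ptges, the inducible prostaglandin E synthase, differed by -0.74 ± 0.31, with -0.26, -1.25 and -1.13 in AIA-cold-WTD and -0.08, -0.40 and 0.06 in AIA-cold, groups that overlapped. The secreted phospholipase gene Pla2g2a was at 0.68, 1.66 and 1.74 in AIA-cold-WTD, against 2.34, 2.35 and 1.91 in AIA-cold (-0.84 ± 0.42), and the prostacyclin synthase gene Ptgis differed by -0.80 ± 0.43, both without overlap. The other lipoxygenase genes of the list, Alox5, Alox12 and Alox15, lie outside the naming rule and differed by 0.09, 0.55 and -0.97, none of them called. Ptgs2, the inducible cyclooxygenase, had no array among the 18 with a spot well above background and was not tested.

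Macrophage markers lay lower in AIA-cold-WTD: 16 of 19 measured members were lower, 7 of them without overlap between the arrays and 0 higher without overlap, while 6.70% of all genes were lower without overlap. No member was called, and the list median was -0.40. Without each of the 6 arrays in turn that median stayed between -0.48 and -0.30, and it was -0.33 within slide 4. Between AIA-hot-WTD and AIA-hot the same members had a median of -0.04. Their mean level was 2.70, 2.43 and 2.77 on the AIA-cold arrays. It was 2.26, 2.49 and 2.14 on the AIA arrays and 0.89, 2.84 and 2.64 on the controls. Csf1r, the receptor for the macrophage growth factor, was at 0.25, 0.24 and 0.50 in AIA-cold-WTD, against 0.98, 0.62 and 0.95 in AIA-cold (-0.52 ± 0.28, adjusted p = 0.91). Adgre1, the classical surface marker gene of rodent macrophages, was at 0.56, 0.20 and 0.60 in AIA-cold-WTD, against 1.38, 1.05 and 1.03 in AIA-cold (-0.70 ± 0.38). Cd209f, a lectin gene, showed the widest gap, with -2.63, -3.84 and -3.12 in AIA-cold-WTD against -0.72, -1.37 and -2.32 in AIA-cold (-1.73 ± 0.59). The complement subunit gene C1qb, the folate receptor gene Folr2, Lyve1 and Aif1, chosen after their values were seen because they complete the 7, differed by -0.46, -0.39, -0.58 and -0.40. The scavenger receptor gene Cd163 differed by -0.57 ± 0.28 with overlap.

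Cell cycle genes lay higher in AIA-cold-WTD: 24 of 25 measured members were higher, with a list median of 0.69, and none was called. Their arrays overlapped for most members, since 4 of 25 were higher without overlap, against 7.68% of all genes (Ccne1, Aurka, Kif11 and Mcm6), and Pcna was lower without overlap by -0.13 ± 0.12. Ccne1, a cyclin of the entry into S phase, read -0.80, -0.35 and 0.54 in AIA-cold-WTD, against -2.35, -2.46 and -1.38 in AIA-cold (1.86 ± 0.58, adjusted p = 0.628). Mki67, the proliferation marker, was at 0.70, 0.29 and 1.22 in AIA-cold-WTD, against -0.54, -1.06 and 0.47 in AIA-cold (1.11 ± 0.50). The value of AIA-cold replicate 3 was above that of AIA-cold-WTD replicate 2 for Mki67. The list median was 0.83 within slide 4, 0.63 on slide 5 and between 0.49 and 0.88 without each array in turn. In the hot model the same members had a median of 0.17 between AIA-hot-WTD and AIA-hot.

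Type I interferon response genes were higher in 16 of 17 members with a median of 0.25 and none called, and 5 of them did not overlap, against 7.68% of all genes that were higher without overlap. Stat2, a transcription factor of the response, differed by 0.28 ± 0.29, and the antiviral genes Mx1 and Mx2 by 0.64 ± 0.72 and 0.87 ± 0.96. The list median in the hot model was -0.41, and whether the lists differ between models was not tested.

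**Figure D4:**
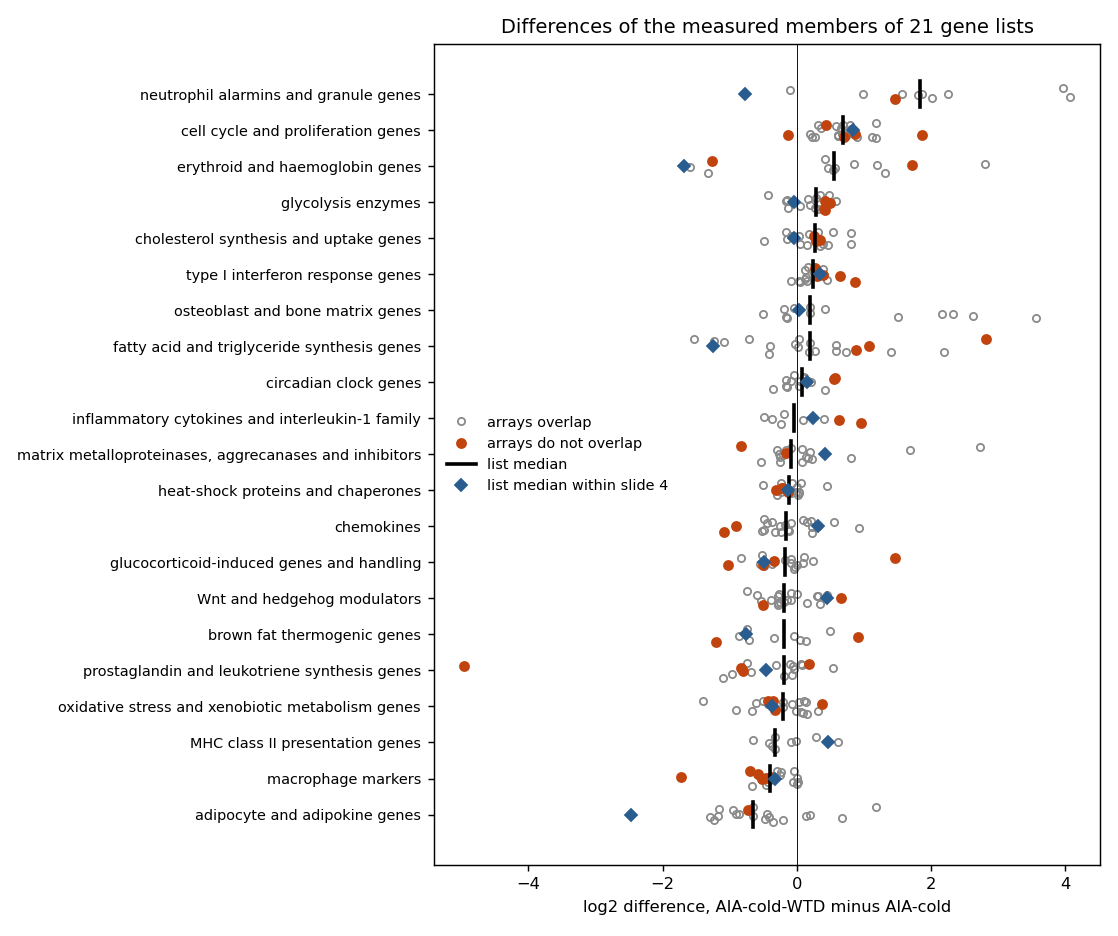
Log2 difference (AIA-cold-WTD minus AIA-cold, horizontal axis) of each measured member of 21 gene lists (rows, ordered by median); filled red points are members whose 3 and 3 arrays do not overlap, black bars are list medians and blue diamonds are the medians within slide 4. Within slide 4 the macrophage, cell cycle and interferon medians are -0.33, 0.83 and 0.34, close to their values over all 6 arrays, while neutrophil, erythroid, adipocyte and fatty acid synthesis medians lie over 1 log2 unit from theirs.

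None of the inflammatory genes by which arthritis is usually followed was called. Il1b was at 0.65, -0.54 and -0.31 in AIA-cold-WTD and at -0.46, -0.43 and -0.52 in AIA-cold, a difference of 0.40 ± 0.32, and Il6 differed by 0.62 ± 0.46 near the background. The chemokine genes Ccl2 and Ccl3 differed by 0.55 ± 0.63 and -0.17 ± 0.24, and the probe for Tnf was not well above background anywhere and went untested. Irak2, a kinase of interleukin-1 signalling, was well above background on 0 AIA-cold-WTD arrays and 1 AIA-cold array and differed by -0.86 ± 0.54. Il1rn, the interleukin-1 receptor antagonist, was higher without overlap, at 0.38, 0.05 and 1.00 in AIA-cold-WTD against -0.54, -0.36 and -0.55 in AIA-cold (0.96 ± 0.48, adjusted p = 0.866). Of 8 measured cytokine genes, 4 were higher and 4 lower, with a median of -0.04 that was 0.25 within slide 4. Without overlap, 2 of the 8 were higher, Il1rn among them, and 0 lower, where 7.68% and 6.70% of all genes were. Of 22 chemokine genes, 14 were lower, with a median of -0.15 that turned to 0.32 within slide 4 and was -0.25 without AIA-cold-WTD replicate 1. Cxcl14, a chemokine of resting epithelia and fibroblasts, was lower without overlap by -1.08 ± 0.40 and Ccl6, a macrophage chemokine of rodents, by -0.90 ± 0.40. These were the 2 of 22 chemokine genes without overlap, where 6.70% of all genes were lower without overlap. Ccl6 and Ccl3 had exceeded the controls in AIA-cold by 1.94 ± 0.40 and 1.93 ± 0.24, contrasts that share the AIA-cold arrays.

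Genes of cartilage and bone destruction gave wide errors. Mmp3 and Ctsk, a stromelysin and the collagen-degrading cathepsin of osteoclasts, differed by -0.26 ± 0.66 and 0.07 ± 0.50, and the osteoclast phosphatase gene Acp5 by 0.27 ± 0.35. Mmp9 and Mmp13, a gelatinase and a collagenase, differed by 2.73 ± 1.94 and 1.69 ± 1.85. Replicates of a group were far apart for these genes: Mmp9 was at -4.01, -1.44 and 0.48 in AIA-cold-WTD and at -6.32, -6.34 and -0.51 in AIA-cold, and the bone matrix gene Bglap was at 1.89, 5.29 and 4.62 in AIA-cold-WTD and at -2.62, -2.00 and 5.70 in AIA-cold. The aggrecanase gene Adamts4 was lower without overlap by -0.82 ± 0.32. The list of proteases and inhibitors had 9 members higher and 10 lower, with a median of -0.08, which was 0.42 within slide 4 and -0.30 without AIA-cold-WTD replicate 1. The osteoclast ligand gene Tnfsf11 was not well above background on any array.

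Among glucocorticoid-induced genes, Zbtb16 and Fkbp5 were higher in AIA-cold than in controls and were not called under WTD. Zbtb16, a transcription factor that glucocorticoids induce, was at -0.90, 0.58 and 0.12 in AIA-cold-WTD and at 0.77, 0.45 and 0.20 in AIA-cold, and Fkbp5, a chaperone of the glucocorticoid receptor, at 3.21, 4.27 and 4.18 in AIA-cold-WTD and at 4.74, 3.93 and 4.08 in AIA-cold. The groups overlapped for both, with differences of -0.54 ± 0.45 and -0.37 ± 0.35, against 3.46 ± 0.45 and 2.50 ± 0.35 for AIA-cold over control. Without overlap, 3 of 19 members were lower and 1 was higher, where 6.70% and 7.68% of all genes were. The 3 lower ones were Nfkbia, the inhibitor of NF-kappaB, by -0.51 ± 0.19, Ddit4, an inhibitor of mTOR signalling, by -1.02 ± 0.40, and Klf9 by -0.34 ± 0.19. Differences within the list ran from -1.03 to 1.47. In all, 14 of 19 members were lower and 0 were called, with a median of -0.17 that was -0.48 within slide 4 and -0.08 without AIA-cold-WTD replicate 1.

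Neutrophil, red cell and fat genes varied widely among the arrays of each group, and none was called. S100a8, an alarmin of neutrophils, was at 0.70, 4.91 and 6.36 in AIA-cold-WTD and at 0.85, 1.42 and 4.10 in AIA-cold, and its partner S100a9 at 1.13, 5.32 and 6.75 in AIA-cold-WTD and at 1.79, 2.30 and 4.41 in AIA-cold. The differences of 1.86 ± 1.39 and 1.57 ± 1.29 turned to -1.43 and -1.70 within slide 4. The median of the 10 measured neutrophil genes was 1.83, but -0.78 within slide 4 and 3.27 on slide 5. Lcn2, an iron-carrier protein of neutrophils and epithelia, was the 1 member of 10 without overlap, where 7.68% of all genes were higher without overlap. It was at 2.38, 1.60 and 2.70 in AIA-cold-WTD against 0.68, 0.57 and 1.03 in AIA-cold (1.47 ± 0.57, adjusted p = 0.715). The list of erythroid genes had a median of 0.55, which was -1.69 within slide 4 and 1.88 on slide 5. Of its 12 measured members, 9 were higher and 3 lower. Without overlap, 1 was higher and 1 lower, where 7.68% and 6.70% of all genes were. Hbb-b1, a haemoglobin gene of that list, was lower on all 3 treated arrays, by -1.26 ± 0.36.

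Adipocyte genes had a median of -0.66, which was -2.47 within slide 4 and 0.35 on slide 5, without replicate 1. Adipoq, the adiponectin gene, was at 4.97, 7.86 and 7.70 in AIA-cold-WTD, against 7.90, 8.32 and 6.86 in AIA-cold. Cfd, the complement factor secreted by fat cells, was the 1 member of 19 without overlap, where 6.70% of all genes were lower without overlap. It was at 9.00, 9.03 and 8.86 in AIA-cold-WTD against 9.75, 9.85 and 9.47 in AIA-cold (-0.73 ± 0.21, adjusted p = 0.593). Genes of fatty acid synthesis had a median of 0.19 over 20 members, -1.25 within slide 4. Fasn, the fatty acid synthase gene, was at 3.66, 6.82 and 7.95 in AIA-cold-WTD against 3.20, 3.58 and 3.18 in AIA-cold (2.82 ± 1.04, adjusted p = 0.686), and the desaturase gene Scd was at 2.70, 6.04 and 6.32 in AIA-cold-WTD against 2.31, 2.29 and 3.86 in AIA-cold (2.20 ± 0.90). Fasn was thus high on the 2 arrays of slide 5 and close to AIA-cold on replicate 1, whose fat markers were low; its difference was 0.34 within slide 4 and 4.06 on slide 5. Scd2, a second desaturase gene, differed by 1.08 ± 0.45 without overlap, and by 1.31 within slide 4. How far tissue content and slide enter these values was not tested.

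**Figure D5:**
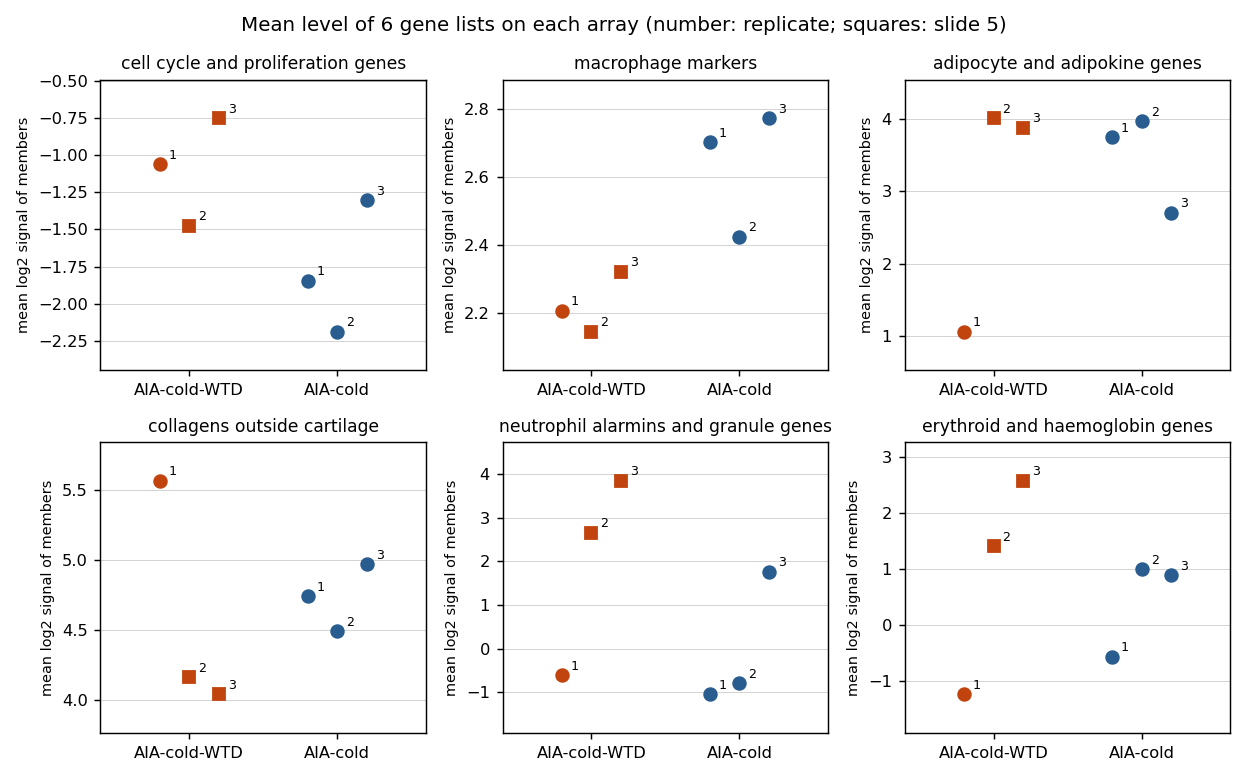
Mean log2 signal of the measured members of 6 gene lists (vertical axes, each with its own range) on the 3 AIA-cold-WTD and the 3 AIA-cold arrays (horizontal axes); numbers are replicates and squares are the arrays of slide 5. Macrophage means are lower on every AIA-cold-WTD array, at 2.21, 2.15 and 2.32 against 2.70, 2.43 and 2.77, whereas adipocyte, collagen, neutrophil and erythroid means set AIA-cold-WTD replicate 1 apart from replicates 2 and 3.

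Carbon metabolism showed smaller shifts. Glycolysis enzymes were higher in 13 of 18 members with a median of 0.28 and none called, and 4 of them did not overlap, where 7.68% of all genes were higher without overlap. Gapdh was at 5.64, 5.62 and 5.78 in AIA-cold-WTD against 5.22, 5.29 and 5.32 in AIA-cold (0.40 ± 0.21), Gpi differed by 0.42 ± 0.18 and the pyruvate kinase gene Pkm by 0.49 ± 0.23. Their list median was -0.05 within slide 4, although Gapdh, Gpi and Pkm kept differences of 0.36, 0.40 and 0.59 there. Cholesterol synthesis and uptake genes were higher in 15 of 20 members with a median of 0.28, and -0.05 within slide 4. Mvk and Pmvk, both kinases of the mevalonate pathway, differed by 0.35 ± 0.17 and 0.29 ± 0.15 without overlap, and Sqle, the squalene epoxidase gene, by 0.26 ± 0.39. The glucose transporter gene Slc2a1 differed by 0.30 ± 0.21 and the muscle creatine kinase gene Ckm by 0.46 ± 1.94.

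Stress and clock genes differed little. Heat-shock proteins were lower in 13 of 19 members with a median of -0.12 and none called. Of the 19, 4 were lower and 0 higher without overlap, where 6.70% of all genes were lower without overlap. Hsf1, the factor that drives them, differed by -0.22 ± 0.11 and the chaperone gene Dnaja1 by -0.30 ± 0.21, both without overlap. Genes of oxidative stress and xenobiotic metabolism were lower in 13 of 21 members with a median of -0.20 (-0.37 within slide 4, 0.00090 without AIA-cold-WTD replicate 1), among them Nfe2l2, their main transcription factor, by -0.33 ± 0.17 and Cyp1b1, an oxidase of xenobiotics, by -0.43 ± 0.22. Clock genes had a median of 0.08 over 16 members, with Per3 higher without overlap by 0.55 ± 0.24 and the output gene Dbp by 0.57 ± 0.34, while Bhlhe40 and Tef differed by 0.41 ± 0.34 and 0.21 ± 0.18. MHC class II presentation genes had a median of -0.32 that was 0.47 within slide 4; Cd74, their invariant chain gene, was at 7.10, 5.72 and 5.62 in AIA-cold-WTD and at 6.66, 5.82 and 7.08 in AIA-cold. Bone matrix genes had a median of 0.20 over 13 members, 0.03 within slide 4 and 0.56 without AIA-cold-WTD replicate 1, and Alpl, a phosphatase of mineralising cells, differed by 1.51 ± 1.19. Wnt and hedgehog modulators had a median of -0.19 over 21 members, which turned to 0.44 within slide 4. Brown fat genes had a median of -0.19 over 10 members, which was -0.75 within slide 4 and 0.17 without AIA-cold-WTD replicate 1, with Pank1, which makes coenzyme A, at 0.92 ± 0.40 and the fatty acid transporter gene Slc27a2 at -1.20 ± 0.53.

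Whether WTD acted differently in the cold than in the hot model was asked with the difference of the 2 effects, and no gene passed. After Alox15b came Zfp185, with a difference of effects of 3.00 ± 0.53 (adjusted p = 0.4), Ptk7 with 1.66 ± 0.32 (adjusted p = 0.6), Tmem52 with -0.94 ± 0.20 (adjusted p = 0.752), Olfml2a with 0.97 ± 0.21 and Zim1 with -2.06 ± 0.46 (adjusted p = 0.942). Rspo2, a secreted enhancer of Wnt signalling, had effects of 0.65 ± 0.22 in the cold and -0.66 ± 0.22 in the hot model, a difference of 1.31 ± 0.31, and Zfat one of -0.92 ± 0.22 (both adjusted p = 0.988). For Ptk7 the effects were 1.04 ± 0.23 in the cold and -0.63 ± 0.23 in the hot model. AIA-hot-WTD and AIA-hot arrays were on slides 2 and 3, so the contrast also crosses slides. It also sets treated arrays with the title letters G, Z and Z beside treated arrays with D, G and Z.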

How the data were processed

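Total RNA was hybridised to single-colour (Cy3) Agilent rat arrays, and, per the file headers and the submitters' processing notes, the authors made the deposited intensity values per spot with Agilent Feature Extraction 10.7, which subtracted background and detrended each array but did not normalize between arrays. The authors' deposited series table holds log2 values of unstated method that were already brought to a common distribution, and it served only as an alternative.

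Control spots and outlier flags were left out, log2 of the processed signal was taken, spots of a probe were averaged, and each array's 75th percentile was subtracted. The 75th percentile of the processed signal was 249 to 307 on the 6 arrays compared. The 28273 probes kept were well above background throughout the 3 arrays of some group, and a gene was its brightest kept probe; 11840 of 23607 genes had a usable symbol through the RefSeq gene table of GRCr8. limma 3.58.1 in R 4.3.3 fitted all 18 arrays with a mean per group (12 residual degrees of freedom) and no covariate, with Benjamini-Hochberg adjustment over all genes; the fit was tested on simulated data. No model is stated in the labels. Replicates were numbered in accession order and pair nothing, and p-values measure the spread between arrays: the titles give each array its own identifier as a biological replicate, and do not say whether an array held 1 animal or several. Adjusted p within slide 4 came from the fit with slide as a fixed block. "Without overlap" means that all 3 arrays of 1 group lie beyond all 3 of the other. Of all genes, 7.68% were higher and 6.70% lower in this way, which is the share to set beside any such gene. The number of arrays limits the precision.

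Named genes are the 12 higher and 12 lower genes with a symbol and no overlap, called ones first and then by smallest p, 8 genes by the difference of effects, up to 4 members per described list by smallest p, and a fixed set of arthritis genes. The 46 lists hold 706 measured of 871 listed genes; they, the named genes and the comparison were chosen with earlier results of these data known, and lists are described by counts and medians without a test.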

Additional observations from a re-analysis of the deposited data

How the results depend on the processing

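The count of 2 called genes depended on the arrays and the variance model more than on the scaling. It was 4 with quantile normalization, 4 with median scaling (1 higher and 3 lower) and 4 in the authors' deposited table, 0 with only the 6 arrays of both groups fitted in limma (1864 at an unadjusted p under 0.05), 32 with slide as a fixed block (15 higher, 17 lower, neither of the 2 main calls among them) and 2084 with array weights, which gave AIA-cold-WTD replicate 1 a weight of 0.22 and control replicate 1 one of 0.093. Without control replicate 1 it was 8; leaving out 1 array in turn gave 1 to 82, and the 82 (7 higher, 75 lower, both main calls included) came without AIA-cold-WTD replicate 1, which leaves slide 5 alone against slide 4. Of 2 settings chosen after seeing the data, leaving out both slide 5 arrays gave 6 and leaving out control replicate 1 with AIA-cold-WTD replicate 1 gave 305. The difference of effects had 0 calls in the main setting, 3 with quantile normalization, 3 with median scaling, 3 in the deposited table, 5 with slide as a fixed block, 166 with array weights, 0 to 9 without each array in turn, 2 without control replicate 1, and 3 and 39 in the 2 added settings. The causes were not tested. Within slide 4, which is also what the fit without both slide 5 arrays gives, the sign turned for S100a8 (-1.43), S100a9 (-1.70), Ckm (-2.08), Mmp3 (0.65), Cd74 (0.58), Slc2a1 (-0.21), Prg4 (-0.17), Scd (-0.12), Acp5 (-0.018) and Ccl3 (0.00071). Ctsk turned to -0.26 with array weights and -0.46 without control replicate 1 and AIA-cold-WTD replicate 1, Adipoq to 0.083 in that last setting and Ckm to -0.040 with slide as a random block. Over the 6 leave-one-out fits Mmp3 ran from -0.71 to 0.30, Ctsk from -0.46 to 0.45, Prg4 from -0.11 to 0.31, Adipoq from -1.36 to 0.083 and Ckm from -0.52 to 1.73. The other genes put through these settings kept their sign; Alox5, Alox12 and Alox15 were not put through them. Of 966 list medians over all settings, 76 lay more than 1 SD between replicates from the main value. No paired analysis was possible because the labels give no replicate number shared between groups. Signal near background limits Alox15b, Ccdc103, Zfp185, Dip2c, Mfsd4b2l1, Megf11, Elmod1, Dusp4, Trh, Il6, Irak2, Mmp9, Mx2 and Kif11, which were not well above it on all 6 arrays.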

Other observations

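Lists tied to the pharmacology of aconite alkaloids and of cold held 0 called genes. The 8 measured voltage-gated sodium channel subunits had a median difference of 0.03 (AIA-cold-WTD minus AIA-cold, log2), with 4 higher and 4 lower; it was 0.44 within slide 4, where the median of all genes was 0.05. The 17 adrenergic receptors and cyclic AMP targets had a median of 0.02, and 0.17 within slide 4, with 10 higher and 7 lower. The 3 cold-inducible RNA-binding genes had a median of -0.14, and -0.23 within slide 4. Of 9 listed thermosensitive TRP channels 2 were measured, with a median of 0.04 over all 6 arrays and 0.74 within slide 4.

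Subunits of the mitochondrial respiratory chain had a median of 0.04 over 25 genes, which was -0.50 within slide 4 and 0.36 on slide 5. Collagens showed the opposite order, with a median of -0.08 over 20 genes, 0.86 within slide 4 and -0.64 on slide 5. Interleukin-1 and Toll-like receptor signalling genes were lower in 17 of 21 members with a median of -0.08, which was 0.05 within slide 4. Unfolded protein response genes were lower in 12 of 15 members with a median of -0.11, which was -0.24 within slide 4, and none was called.

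RefSeq promoters of GRCr8, each a short window around a gene's start, were found for 19 of the 24 named genes. On both strands, the E-box CACGTG was in 1 of them (Ccdc103), against 7.08% of all 27457 genes with a promoter, and the palindromic cyclic AMP element in 1 (Ltbp1), against 2.00%. The heat-shock element was in 0, against 9.09%, the interferon element in 0, against 4.12%, and the glucocorticoid element in 0, against 0.459%. A match describes the letters in this window only.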
